A study of Mus musculus with 36 samples.

Results

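Common dendritic progenitors (CDP) were compared after 4 h of TGF-β1 with CDP that were left untreated. The arrays were chosen by their labels alone: 3 arrays of CDP at 4 h and 3 arrays of untreated CDP (0 h), 6 of the 36 arrays of the series. The other 30 arrays hold CDP at 2, 8, 12 and 24 h of TGF-β1 and multipotent progenitors (MPP) over the same course, 3 arrays for each cell type and time. All cells were grown from mouse bone marrow in culture with a cytokine cocktail and sorted by FACS, and treated cells received 10 ng/ml recombinant human TGF-β1 in the same culture. Strain, sex and age of the mice are not given in the sources used here, and 1 protocol text of the labels gives 6 h for the group that all sample titles name 8 h. The study counts the arrays of a group as biological replicates. No untreated arrays at 4 h were analysed, so a response to TGF-β1 cannot be told apart from what 4 h more of culture did.

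TGF-β1 binds a pair of receptor kinases on the cell surface, Tgfbr2 and Tgfbr1, and Tgfbr1 phosphorylates Smad2 and Smad3, which enter the nucleus with Smad4 and act on target genes. Many early targets are themselves dampers of the pathway, among them the inhibitory Smads, the corepressors Ski and Skil and the membrane proteins Pmepa1 and Ldlrad4. CDP are progenitors that give rise to conventional and plasmacytoid dendritic cells, and TGF-β1 is also known as the cytokine on which the Langerhans cells of the epidermis depend.

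The labelled cell type was checked against 10 marker genes of CDP. Flt3, the receptor of the main dendritic cell growth factor, lay between 12.28 and 12.98 on the log2 intensity scale on the 6 arrays, against a mean of 10.23 in untreated MPP. Kit, which marks earlier progenitors, lay between 8.31 and 8.86, against a mean of 11.30 in untreated MPP. Cx3cr1 lay between 11.57 and 12.41, against a mean of 10.27 in untreated MPP. Csf1r, Irf8, Tcf4 and Spi1 were high in both cell types, with means of 12.80, 12.61, 11.89 and 13.31 in untreated CDP and of 12.65, 12.29, 11.20 and 13.16 in untreated MPP. Differences between the untreated cell types were not tested. The progenitor gene Cd34 averaged 12.07 in untreated CDP and 13.11 in untreated MPP. Il7r and Ly6d, lymphoid genes taken as low in CDP, lay between 8.71 and 10.31 and between 7.77 and 8.31, and both averaged lower in untreated MPP (7.93 for Il7r, 7.40 for Ly6d). The mean of all 10 CDP markers was 11.57 to 11.64 at 4 h and 11.20 to 11.27 at 0 h, without overlap, with Il7r called higher. That mean includes the 2 genes taken as low, Il7r and Ly6d, which differed by 1.05 and 0.30. Its shift is therefore not a measure of CDP identity. Among markers of other lineages, the mean of 5 neutrophil markers was 7.46 to 7.83 at 4 h and 7.14 to 7.68 at 0 h, with Cxcr2 called higher. The mean of 5 monocyte and macrophage markers was 8.78 to 9.13 at 4 h and 9.24 to 9.65 at 0 h, with Mrc1 called lower. The mean of 5 T and NK cell markers was 6.73 to 6.78 at 4 h and 6.64 to 6.69 at 0 h, and that of 5 mast cell markers 6.35 to 6.43 at 4 h and 6.38 to 6.47 at 0 h. In each of these last sets 3 of 5 markers lay at the dim end of the scale on all 6 arrays, where a change can hardly be measured. Erythroid, megakaryocyte and B cell markers gave overlapping means and no call. In RNA from many cells, fewer cells of a type and less RNA per cell cannot be told apart.

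Of 19938 genes tested, 86 rose (0.431% of all genes) and 54 fell (0.271%) at an adjusted p under 0.01 and a log2 fold change of at least 1. Values are log2 fold changes, CDP at 4 h minus untreated CDP, with the standard error (SE) of limma and 3 arrays per group. In all 140 called genes the 3 pairs of arrays with a common replicate number gave 1 direction, and the 4 h and 0 h values did not overlap for 85 of the 86 higher and 51 of the 54 lower genes. These genes were called on the same arrays, so such agreement follows largely from the choice and adds no support. The median over all genes was 0.00. Rises were larger than falls: 12 genes rose by 2 or more on the log2 scale and 2 fell by as much. Without the fold minimum, 465 genes were higher (2.33%) and 500 lower (2.51%).

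Pmepa1 had by far the largest rise. Its level was 11.67, 11.81 and 11.64 at 4 h, against 7.74, 8.79 and 7.12 at 0 h (3.82 ± 0.23, 14.2-fold, limma adjusted p = 2.02e-07). The treated arrays spread over 0.16 and the untreated ones over 1.67. It was followed by Rasgrp3, an exchange factor that activates Ras and Rap, with 11.10, 11.15 and 11.18 at 4 h, against 8.69, 8.55 and 8.39 at 0 h (2.60 ± 0.16, 6.06-fold, limma adjusted p = 2.02e-07). Chad, which encodes the matrix protein chondroadherin, had 9.78, 10.20 and 9.19 at 4 h, against 7.18, 7.07 and 7.14 at 0 h (2.59 ± 0.14). For Chad the treated arrays spread over 1.01, and replicate 3 was the lowest of them. Spsb1, a SOCS-box adaptor that in human cells targets TGF-β receptor II for degradation, had 11.91, 12.11 and 12.12 at 4 h, against 9.71, 9.99 and 9.43 at 0 h (2.34 ± 0.12). Tmem119, best known as a marker of microglia, rose by 2.22 ± 0.11. The rest of the 15 largest rises, beside genes taken up below, were Pald1 (2.14 ± 0.17), the carboxypeptidase gene Cpd (2.12 ± 0.15), Tent5c (2.00 ± 0.25), F11r (1.99 ± 0.12), a junctional adhesion molecule, and Lhfpl2 (1.97 ± 0.15).

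The largest falls were those of Gda, Vcan, Nxpe5, Gem, Gm5150, Clec4n, Cd28 and Mrc1, most of which return below with their groups. Of the rest, Nxpe5 (−1.91 ± 0.26), Gm5150 (−1.86 ± 0.19) and Gm9733 (−1.77 ± 0.12) are little described. Ndrg1, a stress and differentiation gene, fell by 1.57 ± 0.18. Rgl1, an exchange factor for Ral, also fell (−1.45 ± 0.14). Ak4, a mitochondrial adenylate kinase, had 10.49, 9.79 and 8.13 at 4 h, against 11.71, 11.57 and 10.29 at 0 h (−1.72 ± 0.35). Its replicate 3 was the lowest array in both groups, the groups overlapped, and its call was lost without the replicate block (limma adjusted p = 0.312).

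**Figure D1:**
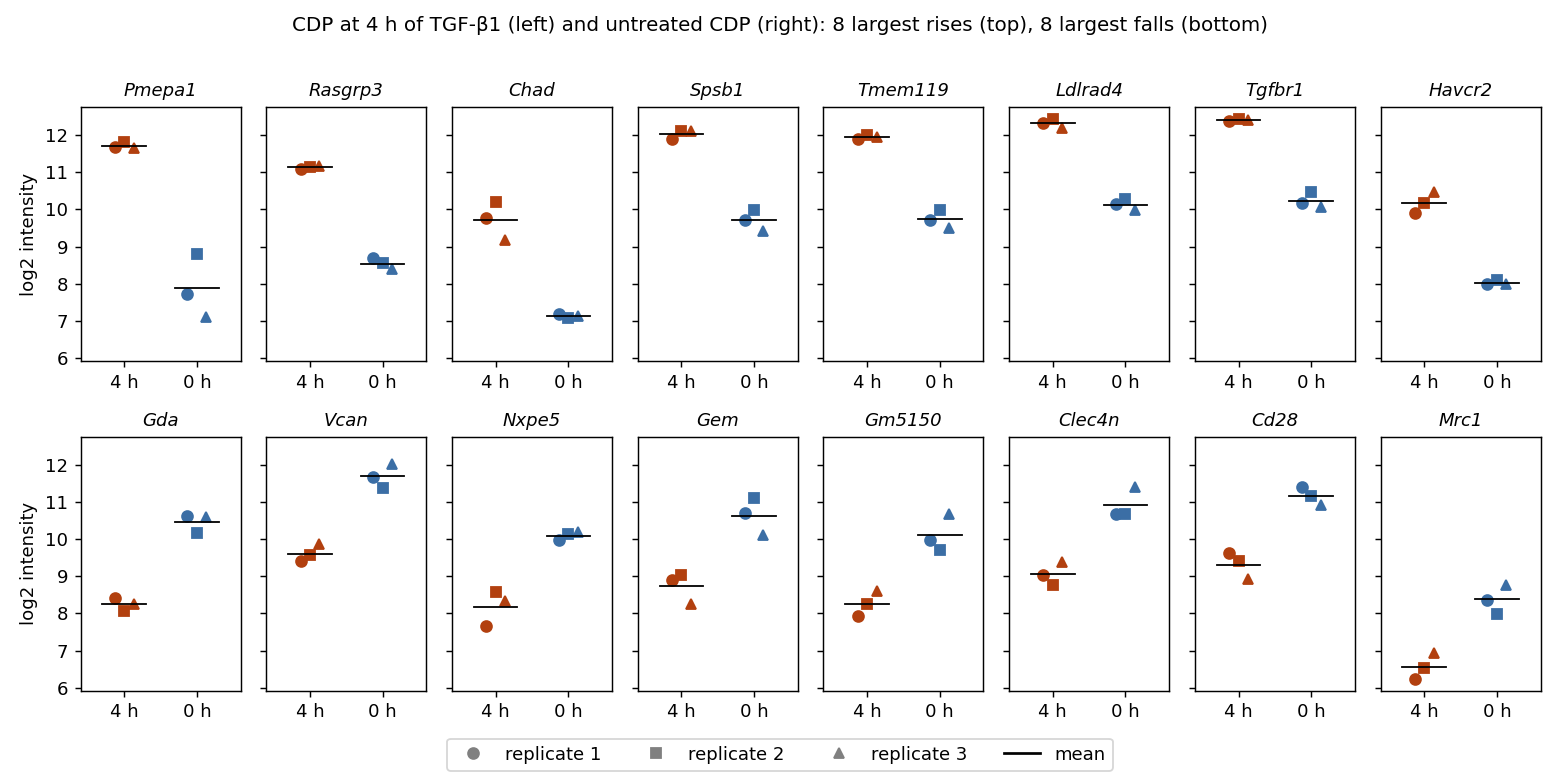
Level (log2 intensity, vertical axis) of the 8 genes with the largest rise (top) and the 8 with the largest fall (bottom) on the 3 arrays of CDP at 4 h (left in each panel) and the 3 of untreated CDP (right), with 1 symbol per replicate number and the mean as a line. Groups are apart in all 16 panels, and the untreated values of Pmepa1 spread more widely than its treated ones.

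Some dampers of the pathway rose. Of 22 feedback inhibitors and corepressors measured, 6 rose and none fell. Besides Pmepa1 these were Ldlrad4 (2.18 ± 0.07), which like Pmepa1 holds Smad2 and Smad3 away from the receptor, the corepressors Skil (1.85 ± 0.12) and Ski (1.52 ± 0.09), and the inhibitory Smads Smad7 (1.50 ± 0.08) and Smad6 (1.06 ± 0.08). Smad7, which blocks the receptor, had 10.44, 10.67 and 10.46 at 4 h, against 8.89, 9.28 and 8.92 at 0 h. The groups of Smad7 were 1.16 apart. Skil had 11.38, 11.37 and 11.41 at 4 h, against 9.16, 9.66 and 9.81 at 0 h, again with the treated arrays closer together than the untreated ones. The ubiquitin ligases Smurf1 (0.93 ± 0.14) and Smurf2 (0.39 ± 0.06) and the corepressor Tgif1 (0.45 ± 0.07) passed the adjusted p but not the fold minimum. The rest passed neither, 7 of the 22 had a negative log2 fold change, and the list's median of 0.09 lay near that of all genes (0.00).

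Among 14 receptors of the TGF-β family only Tgfbr1, the type I receptor kinase, passed the test. Its level was 12.39, 12.45 and 12.42 at 4 h, against 10.16, 10.46 and 10.08 at 0 h (2.18 ± 0.09, 4.54-fold, limma adjusted p = 5.63e-09). Its partner Tgfbr2 differed by 0.77 ± 0.10 and the coreceptor Eng by 0.73 ± 0.09, both under the fold minimum, and the activin receptor Acvr2a by −0.53 ± 0.06. None of 15 Smads and Smad partners passed. Smad3 differed by −0.66 ± 0.08 and Runx3, a partner factor required for Langerhans cells, by 0.97 ± 0.07. None of 21 ligands and latency genes passed either. Furin, the protease that processes the TGF-β1 precursor, differed by 0.78 ± 0.07. The log2 fold changes of this list ran from −1.0 to 0.78. At the adjusted p alone, 1 member was higher and 0 were lower.

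For 67 of the 86 higher genes and 35 of the 54 lower genes, RefSeq promoter windows (GRCm38.p6, 250 bases before to 50 after the start) were at hand, as they were for 15614 of all 19938 genes. Pmepa1, Skil and Smad7 were not among the matched genes. The Smad-binding letters CAGACA, on either strand, stood in a window of 22 higher genes (32.8%) and 6 lower genes (17.1%), against 20.7% of all genes. The AP-1 letters TGANTCA stood in 11 higher (16.4%) and 5 lower (14.3%) genes, against 8.08% of all genes, and the PU.1 letters GAGGAAG in 15 (22.4%) and 7 (20.0%), against 15.1%. The letters GGCGCC stood in 25.4% of the higher and 20.0% of the lower genes, against 18.6% of all genes. The palindrome GTCTAGAC stood in 1 higher gene and in 0.288% of all genes. Higher genes had 1.36 windows each, against 1.23 over all genes, which by itself gives more room for matches, and no test was made.

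The 250 bases upstream of a start are printed for 4 genes whose change the text turns on, the receptor gene Tgfbr1, the checkpoint gene Havcr2, the plasmacytoid dendritic cell gene Siglech and, among the lower genes, the mannose receptor gene Mrc1. Capitals mark the first Smad-binding letters, the AP-1 letters and the PU.1 letters given above, read on either strand. A match is a description of the letters and not a shown binding site. Some genes have several starts, and whether a printed start is the main start of its gene was not tested. The Tgfbr1 window in particular is not shown to be the main promoter of the gene. The windows are chr4:47385966-47386215 (Tgfbr1), chr11:46454681-46454930 (Havcr2), chr7:55767934-55768183 (Siglech) and chr2:14229164-14229413 (Mrc1), all on the plus strand.
Tgfbr1: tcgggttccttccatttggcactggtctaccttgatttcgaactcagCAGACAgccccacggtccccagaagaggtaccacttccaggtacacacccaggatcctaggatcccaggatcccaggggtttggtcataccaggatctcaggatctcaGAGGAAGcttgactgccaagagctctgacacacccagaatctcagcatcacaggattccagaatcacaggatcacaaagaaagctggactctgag
Havcr2: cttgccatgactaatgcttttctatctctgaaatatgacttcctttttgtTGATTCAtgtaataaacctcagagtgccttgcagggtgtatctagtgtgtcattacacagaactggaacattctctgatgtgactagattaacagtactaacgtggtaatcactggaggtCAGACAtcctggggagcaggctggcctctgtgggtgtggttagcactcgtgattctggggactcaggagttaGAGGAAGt
Siglech: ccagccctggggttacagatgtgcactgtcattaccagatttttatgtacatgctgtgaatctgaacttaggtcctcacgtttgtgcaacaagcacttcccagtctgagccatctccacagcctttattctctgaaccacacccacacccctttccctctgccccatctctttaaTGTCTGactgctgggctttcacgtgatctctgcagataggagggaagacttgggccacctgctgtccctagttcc
Mrc1: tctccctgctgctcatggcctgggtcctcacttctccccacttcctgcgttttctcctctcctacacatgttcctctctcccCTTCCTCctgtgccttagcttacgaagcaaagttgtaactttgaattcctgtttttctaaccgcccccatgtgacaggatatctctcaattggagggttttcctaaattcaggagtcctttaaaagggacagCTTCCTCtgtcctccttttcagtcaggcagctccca
The CAGACA letters began 203 bases before the start used for Tgfbr1, 80 for Havcr2 and 75 for Siglech. Mrc1 held the GAGGAAG letters at 168 and 36 bases, there on the minus strand.

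Genes of Langerhans cells were among the higher ones. Of 13 measured, 3 rose and none fell, with a median of 0.57 against 0.00 over all genes. Axl, a receptor tyrosine kinase that clears dying cells and restrains inflammation, had 10.57, 9.66 and 10.37 at 4 h, against 7.77, 7.81 and 8.71 at 0 h (2.10 ± 0.28, limma adjusted p = 1.79e-04). Replicate 2 was the lowest treated array and replicate 3 the highest untreated one. The tight junction gene Cldn1 had 8.40, 8.97 and 8.78 at 4 h, against 6.77, 6.96 and 6.97 at 0 h (1.82 ± 0.18). The adhesion gene Cdh1, which holds Langerhans cells to keratinocytes, had 9.45, 10.78 and 9.73 at 4 h, against 8.33, 9.29 and 8.60 at 0 h (1.25 ± 0.24, limma adjusted p = 4.48e-03). Here the highest untreated array, replicate 2, lay 0.16 below the lowest treated one. Without replicate 1, 1 of the list passed, and the calls of Axl and Cdh1 were lost (adjusted p = 0.0130 for Axl and 0.0956 for Cdh1, limma). Both calls were also lost without replicate 2 (limma adjusted p = 0.0128 for Axl and 0.0117 for Cdh1), and that of Cdh1 also without replicate 3 (0.0128), without the replicate block (0.0549) and with a random block (0.0222).

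Surface receptors of innate immunity went mostly the other way. Of 29 C-type lectin, Cd300, Fc and related receptors measured, 8 fell and 1 rose, and the list's median was −0.41 against 0.00 over all genes. The lectin Clec4n, which is Dectin-2 and binds fungal mannans, had 9.04, 8.76 and 9.37 at 4 h, against 10.68, 10.68 and 11.40 at 0 h (−1.86 ± 0.17, limma adjusted p = 5.96e-06). Clec4a3 (−1.43 ± 0.22), Clec4b1 (−1.13 ± 0.17) and Clec4a2 (−1.02 ± 0.19) fell with it, as did Cd300e (−1.26 ± 0.11), Cd300ld (−1.14 ± 0.12) and Cd300a (−1.04 ± 0.12) and the Fc receptor Fcgr4 (−1.16 ± 0.13). Receptors of these families activate or restrain myeloid cells. The member that rose was Siglech, a surface lectin of plasmacytoid dendritic cells, with 10.85, 10.98 and 10.23 at 4 h, against 8.93, 9.04 and 8.31 at 0 h (1.93 ± 0.14). Replicate 3 of Siglech was the lowest array in both groups. The number of lower members was 5 without replicate 1, 5 without replicate 2, 6 without replicate 3 and 3 without the replicate block.

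Several of these genes are neighbours on the chromosome. Ordered by RefSeq, 7 groups of called genes of 1 direction lay within 5 measured genes of each other and held 20 of the 140 called genes. The largest, on chromosome 6, held Clec4a3, Clec4a4, Clec4b1, Clec4a2, Clec4n and the glucose transporter gene Slc2a3, all lower. A second group on chromosome 6 held Klri1, Klri2 and Klra17, lower, and another Cav1 and Cav2, which form caveolae, higher. Cd300a, Cd300ld and Cd300e lay together on chromosome 11, and Gm9733 and Gm5150 on chromosome 3, all lower. Members of these families are alike in sequence, and probes may take signal from more than 1 of them, so that the level of a single member is uncertain.

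Of 24 monocyte and macrophage genes 3 fell and none rose, with a median of −0.16. Gda, the guanine deaminase of purine breakdown, had the largest fall of all genes, with 8.43, 8.05 and 8.24 at 4 h, against 10.62, 10.17 and 10.59 at 0 h (−2.22 ± 0.14, 4.67-fold lower, limma adjusted p = 2.23e-07). Mrc1, the macrophage mannose receptor, had 6.23, 6.54 and 6.94 at 4 h, against 8.36, 7.99 and 8.77 at 0 h (−1.81 ± 0.20). Maf, a transcription factor of macrophages, fell by 1.08 ± 0.21 and lost its call without the block and without each replicate number in turn. The treated values of Mrc1 lay near the mean of untreated MPP (6.78). The macrophage gene Adgre1 differed by −0.45 and Ccr2 by −0.36, neither called, and the level of C1qa was 6.69 to 6.89 on all 6 arrays. The part of monocyte-like cells in the sorted population in these falls was not tested.

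Matrix genes did not move as a group. Of 23 measured, Chad rose, Vcan and Lox fell and the median was −0.04. The proteoglycan gene Vcan had 9.40, 9.58 and 9.86 at 4 h, against 11.66, 11.39 and 12.02 at 0 h (−2.08 ± 0.12). Lox, which crosslinks collagen and elastin, had 8.99, 9.39 and 9.03 at 4 h, against 10.61, 11.03 and 10.33 at 0 h (−1.52 ± 0.17). The groups were 1.53 apart for Vcan and 0.94 for Lox. Of 26 integrins, Itgb5 alone passed (1.65 ± 0.12), which pairs with αv in a receptor that can bind latent TGF-β. Itgav itself differed by 0.52 ± 0.10 and Itga1 by −0.76 ± 0.09, under the fold minimum.

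Among costimulatory and coinhibitory molecules, 2 of 19 rose and 1 fell. Havcr2, which is Tim-3, had 9.91, 10.17 and 10.47 at 4 h, against 8.00, 8.11 and 7.98 at 0 h (2.15 ± 0.16). Cd96, a receptor of the nectin-binding family, rose by 1.48 ± 0.13. Cd28, the classical costimulator of T cells, had 9.61, 9.42 and 8.92 at 4 h, against 11.40, 11.15 and 10.91 at 0 h (−1.84 ± 0.10, limma adjusted p = 1.42e-07). The groups of Cd28 were 1.30 apart. Of 18 T and NK cell genes Cd5 rose (1.09 ± 0.19) and Klrd1 fell (−1.17 ± 0.25), and both calls were lost without replicate 1 and without replicate 3, and that of Klrd1 also without the block. No other gene of that list passed, and Cd3d lay between 6.14 and 6.35 and Ncr1 between 6.02 and 6.20 on the 6 arrays.

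Small G proteins and their regulators changed in both directions. Besides the rise of Rasgrp3, Gem, a Ras-related protein that restrains calcium channels, had 8.91, 9.03 and 8.25 at 4 h, against 10.69, 11.09 and 10.11 at 0 h (−1.90 ± 0.22). Rnd3, a family member that lacks GTPase activity, fell by 1.39 ± 0.17. In all, 1 of 26 rose and 2 fell, where 0.431% of all genes rose and 0.271% fell. Of 22 G protein subunits Gna15, which couples many receptors to phospholipase C, rose (1.11 ± 0.08), and Gna14 (0.74 ± 0.11) and Gna12 (0.71 ± 0.07) stayed under the fold minimum.

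Of 22 chemokine receptors and related receptors, 2 rose. Cxcr3, the receptor of the interferon-induced chemokines, had 9.92, 9.30 and 10.20 at 4 h, against 7.84, 7.76 and 8.04 at 0 h (1.93 ± 0.12). Cxcr2, the neutrophil receptor, rose by 1.19 ± 0.25, but lost its call without the block and without each replicate number in turn. The neutrophil granule genes Ltf, Camp and Ngp differed by 0.09, −0.02 and 0.07, none called. Of 34 chemokines and cytokines Cxcl16 rose (1.82 ± 0.33) and Ccl6 fell (−1.07 ± 0.12). Of 29 cytokine receptors, Ifnlr1, the receptor of lambda interferons, rose by 1.47 ± 0.14 and Il7r by 1.05 ± 0.13, and the decoy receptor Il1r2 fell by 1.04 ± 0.21. Il7r is one of the 10 CDP markers checked. Cxcl16, Il7r and Il1r2 lost their calls without the block (limma adjusted p = 0.0670 for Cxcl16, 0.0199 for Il7r and 0.105 for Il1r2).

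Few transcription factors of the dendritic lineage passed the fold minimum. Of 27 measured, 2 fell and none rose, with a median of −0.05. At an adjusted p under 0.01 alone, 4 of the 27 were higher and 4 lower. Over all genes, 2.33% were higher and 2.51% lower at that adjusted p. Ahr, the aryl hydrocarbon receptor, had 8.64, 9.47 and 8.95 at 4 h, against 10.39, 10.57 and 10.53 at 0 h (−1.47 ± 0.13, limma adjusted p = 5.17e-06). Of its 9-member list of receptor and targets it was the only one called. Nfil3 fell by 1.02 ± 0.13, close to the fold minimum. Irf8, needed for a branch of conventional dendritic cells, differed by 0.56 ± 0.06, and Batf by −0.50 ± 0.06, both under the fold minimum. None of 10 MHC class II genes and none of 18 conventional dendritic cell genes was called.

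Purine metabolism held 4 called genes of 25, with a median of −0.11 against 0.00 over all genes. Over all genes, 0.431% were called higher and 0.271% lower. Nt5e, the ecto-enzyme that makes adenosine, had 9.25, 9.59 and 9.02 at 4 h, against 7.62, 7.88 and 7.67 at 0 h (1.57 ± 0.14). The ADP receptor P2ry12 rose by 1.02 ± 0.16. Gda and the xanthine oxidoreductase gene Xdh (−1.06 ± 0.07) fell. Their enzymes act on successive intermediates of purine breakdown. Lipid genes gave 1 of 21 in each direction: the cholesterol exporter Abca1 rose (1.17 ± 0.17) and the lipoprotein lipase Lpl fell (−1.17 ± 0.20), and both calls were lost without the block. Ion channels and transporters gave Kcne3 (1.84 ± 0.17) and the proton channel Hvcn1 (1.41 ± 0.12) as higher and Slc2a3 (−1.18 ± 0.14) as lower, of 20. In the erythroid and megakaryocyte list of 17, the thrombin receptor F2r rose (1.62 ± 0.14) and the transferrin receptor Tfrc fell (−1.15 ± 0.14).

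Some groups shifted together below the fold minimum. Of 25 ribosome biogenesis genes none was called, but 12 were lower and none higher at an adjusted p under 0.01, and 24 of 25 had a negative log2 fold change with a median of −0.27 against 0.00 over all genes. Rrp1b (−0.75 ± 0.11), Nop58 (−0.55 ± 0.08) and Polr1b (−0.55 ± 0.07) were the lowest of them. Of 23 genes of the Atf4 response to amino acid shortage, 11 were lower at that adjusted p and none higher, with a median of −0.28. Only Chac1, which breaks down glutathione, passed the fold minimum as well (−1.43 ± 0.10), and Atf4 itself differed by −0.46 ± 0.05. For comparison, 2.51% of all genes were lower and 2.33% higher at that adjusted p. Of 25 immediate early genes Myc (−0.94 ± 0.09), Jun (−0.81 ± 0.13) and Jund (−0.45 ± 0.10) were lower at that adjusted p and none was called.

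Of the 48 lists, 25 held at least 1 called gene and 23 held none. Without a call were S phase and replication genes, G2 and mitosis genes, cyclins and CDK inhibitors, apoptosis regulators, Klf factors, Id and Hes repressors, Toll-like receptors, NF-κB genes, heat shock genes, B cell genes and stem cell genes, among others. At an adjusted p under 0.01 alone, 4 of 19 apoptosis regulators were lower and none higher, where 2.51% of all genes were lower. The lists together held 56 of the 140 called genes, and 84 were in no list. For every list, the share over all genes to set beside its calls is 0.431% higher and 0.271% lower. Golm1 (1.95 ± 0.12) and Emp1 (1.77 ± 0.18) were among the higher genes in no list.

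Of the 70 called genes named for 4 h against 0 h, 16 lost their call without the replicate block. These were Clec4n, Ak4, Abca1, Cdh1, Clec4a2, Clec4a3, Clec4b1, Cxcl16, Cxcr2, Fcgr4, Il1r2, Il7r, Klrd1, Lpl, Maf and Slc2a3. Without replicate 1, 20 lost their call, among them also Axl, Nxpe5, Lox, Ccl6, Cd300a, Cd5, Smad6 and Tfrc. Without replicate 2 it was 14, with Rnd3 and P2ry12 besides genes already given, and without replicate 3 it was 12, with Nfil3 and P2ry12.

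**Figure D2:**
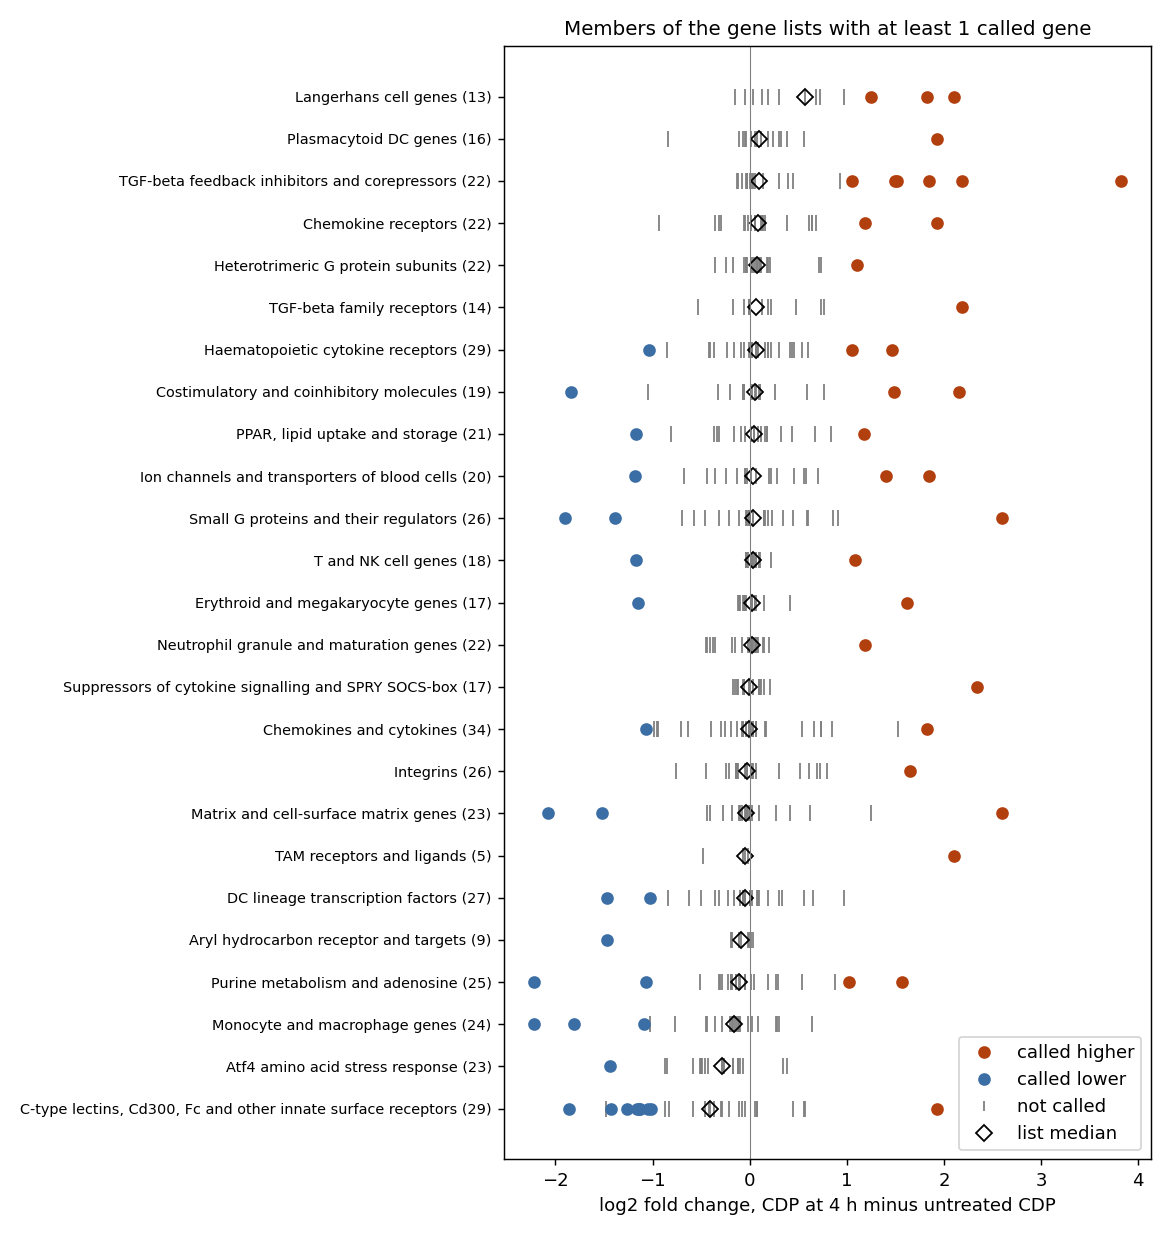
Log2 fold change (CDP at 4 h minus untreated CDP, horizontal axis) of every measured member of the 25 gene lists that held a called gene, ordered by median, with the number measured in brackets. Filled points are called genes, ticks are genes not called and diamonds are list medians. Langerhans cell genes have the highest median (0.57) and innate surface receptors the lowest (−0.41).

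The 22 interferon-stimulated genes gave no call, but they set arrays of 1 group apart. Their mean level was 10.38, 8.38 and 9.94 at 4 h, against 8.71, 8.53 and 10.47 at 0 h, and 12.31 in replicate 3 at 2 h. Thus replicate 2 was low at 4 h and replicate 3 high at 0 h. Xist set replicate 1 apart in all groups (6.84 to 7.28, against 12.62 to 13.74 in the other arrays). Some called genes were, like the interferon-stimulated genes, lowest in replicate 2 at 4 h and highest in replicate 3 at 0 h. Cxcl16 had 11.91, 11.11 and 11.87 at 4 h, against 9.23, 9.52 and 10.67 at 0 h. Sgk1 had 9.79, 8.67 and 9.91 at 4 h, against 7.94, 8.12 and 8.83 at 0 h. As for Axl, the treated replicate 2 and the untreated replicate 3 of both genes were the closest together. With the mean of the interferon-stimulated genes as a covariate, a fit added after the data were seen, 95 genes were higher and 61 lower, and 136 of the 140 called genes kept their call. Axl kept its call in that fit. Another fit, also added later, left out 4 arrays with high means (replicates 1 and 3 at 4 h, replicate 3 at 0 h and replicate 3 at 2 h). Replicate 3 at 24 h stayed in, although its mean of 10.00 was above the 9.94 of replicate 3 at 4 h. In this last fit Cxcl16 rose by 1.86 and Axl by 1.93. Not every called gene kept its size in this last fit: Il1r2 differed by −0.38, against −1.04 in the main fit. That fit has 1 array at 4 h, which is assumed to vary like the other groups.

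The second question was what changed between 2 h and 4 h. A direct test of 4 h against 2 h, on the same arrays, called 11 genes (0.0552% of all genes), 5 higher and 6 lower at 4 h. Hepacam2, an immunoglobulin superfamily gene, had 8.83, 9.45 and 9.04 at 4 h, against 7.66, 7.98 and 7.19 at 2 h (1.50 ± 0.14, limma adjusted p = 3.64e-04). Apbb2, an adaptor of the amyloid precursor protein, had 9.15, 9.43 and 9.31 at 4 h, against 7.97, 7.86 and 8.03 at 2 h (1.34 ± 0.08). Siglech (1.15 ± 0.14), Agap1 (1.02 ± 0.13) and Chad (1.00 ± 0.14) were also higher at 4 h.

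Lower at 4 h than at 2 h were Vcan (−1.44 ± 0.12), the B cell scaffold gene Bank1 (−1.40 ± 0.14), Gda (−1.28 ± 0.14), Clec4n (−1.14 ± 0.17), Lox (−1.05 ± 0.17) and Gm9733 (−1.05 ± 0.12). Bank1 had 7.31, 7.79 and 7.51 at 4 h, against 9.06, 9.33 and 8.42 at 2 h. The 4 h and 2 h values of Bank1 did not overlap. Without the replicate block 3 were higher and 2 lower, Hepacam2, Apbb2, Agap1, Vcan and Bank1. Without replicate 1 none was called, and without replicate 2 only 1 each way.

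Side by side, the courses differed among the called genes. They share the 0 h arrays and are given as values. Pmepa1 stood at 3.80, 3.82, 4.12, 4.15 and 4.20 above untreated CDP at 2, 4, 8, 12 and 24 h, and Skil at 1.92, 1.85, 1.84, 1.80 and 1.79. These were near their 4 h value at 2 h. Hepacam2 stood at 0.51, 2.01, 3.20, 3.58 and 3.62, and Cldn1 at 1.03, 1.82, 2.88, 4.26 and 6.02. Other genes were back near the untreated level at 24 h: Lhfpl2 stood at 1.78, 1.97, 1.69, 1.36 and 0.20, Nt5e at 1.02, 1.57, 1.43, 0.73 and 0.01, and Abca1 at 1.07, 1.17, 0.29, −0.10 and −0.23. Among the lower genes, Vcan stood at −0.64, −2.08, −4.02, −4.46 and −4.69. Ahr stood at −1.78, −1.47, −0.87, −0.28 and 1.02, and so ended above the untreated level.

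**Figure D3:**
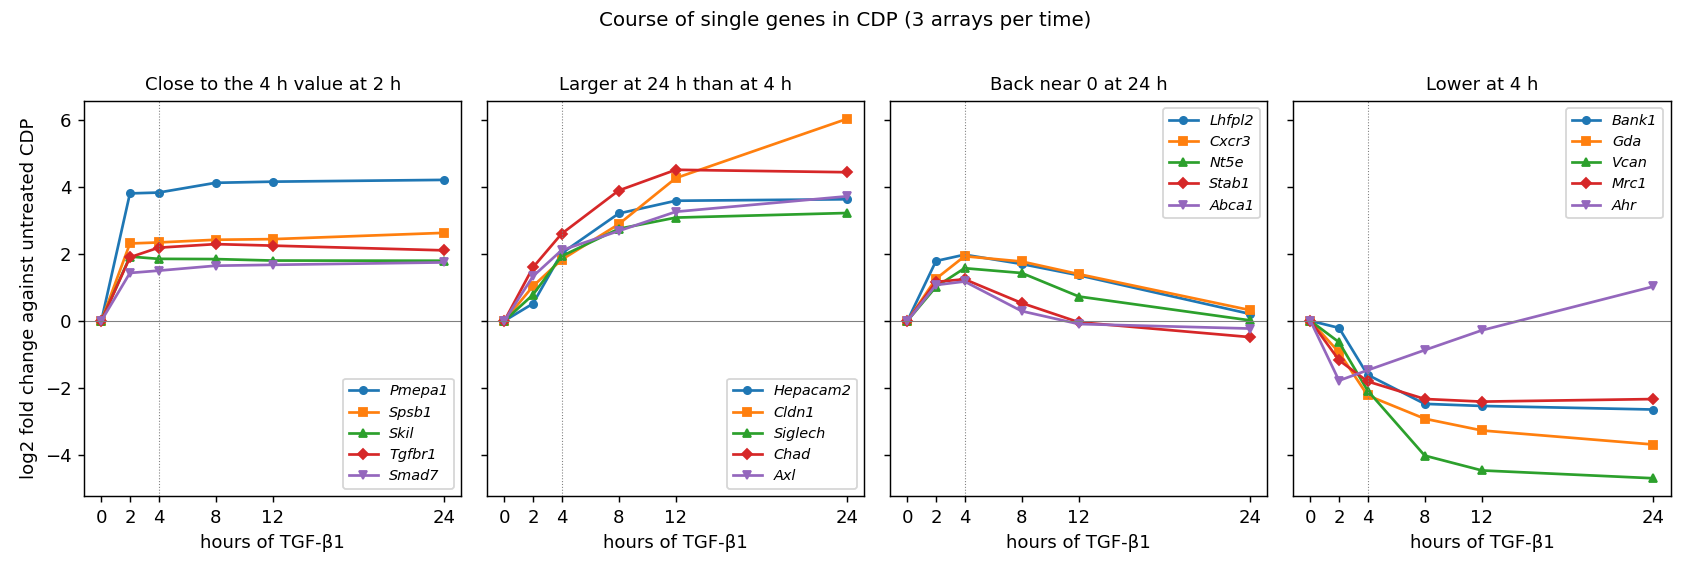
Log2 fold change against untreated CDP (vertical axis) over hours of TGF-β1 (horizontal axis) for 20 genes in 4 panels, each point the fitted change with 3 arrays per time and the dotted line at 4 h. The panels were grouped after the values were seen. Genes of the first panel were close to their 4 h value at 2 h, whereas Hepacam2 and Bank1 lay further from 0 at 4 h than at 2 h.

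The third question was whether CDP and MPP differed in their response at 4 h. MPP are multipotent cells upstream of CDP. Of the 86 higher genes of CDP, 37 were also called higher in MPP at 4 h, 43.0% of the CDP list and 66.1% of the 56 of MPP. Of the 54 lower genes of CDP 16 were also called lower in MPP, 29.6% of the CDP list and 59.3% of the 27 of MPP. For comparison, 56 of all 19938 genes were called higher in MPP at 4 h and 27 lower. Pmepa1 differed by 3.82 in CDP and 3.58 in MPP and Chad by 2.59 in CDP and 2.68 in MPP. The difference of the responses, CDP minus MPP, passed the test for 28 genes (0.14% of all genes), 13 higher and 15 lower in CDP.

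Siglech led the higher ones. Its response was 1.93 in CDP and −0.04 in MPP (difference 1.96 ± 0.20, limma adjusted p = 1.95e-06), and its level in MPP was 7.12, 7.07 and 7.12 at 4 h, against 7.05, 7.23 and 7.14 at 0 h. Cldn1 (1.87 ± 0.24), Hepacam2 (1.79 ± 0.19), Gm11545 (1.48 ± 0.23), Kctd14 (1.40 ± 0.12), Ifnlr1 (1.31 ± 0.18), Apbb2 (1.25 ± 0.12) and Agap1 (1.19 ± 0.15) likewise had a response in CDP and one of at most 0.43 in MPP. In Angpt1 and Il1f9 the response was in MPP. Angpt1, a ligand of the Tie2 receptor, had 5.74, 5.62 and 5.71 in CDP at 4 h, against 5.75, 5.98 and 5.62 in CDP at 0 h. In MPP it had 6.69, 6.85 and 6.72 at 4 h, against 8.41, 8.21 and 8.48 at 0 h (difference of responses 1.52 ± 0.18). Its CDP values overlapped between 4 h and 0 h. So did those of Il1f9 (difference 1.20 ± 0.22), an interleukin-1 family gene, with 6.19 to 6.45 in CDP at 4 h and 6.29 to 6.39 in CDP at 0 h. Both genes lay near the dim end of the scale in CDP, where a fall can hardly be measured.

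Bank1 led the lower ones, with a response of −1.61 in CDP and −0.09 in MPP (difference −1.51 ± 0.16, limma adjusted p = 3.84e-06). In MPP its level was 6.54, 6.67 and 6.82 at 4 h, against 6.70, 6.86 and 6.75 at 0 h, and these values overlapped. Gda was high in MPP (11.05 to 11.48 at 4 h, against 11.98 to 12.25 at 0 h) and its response there was −0.87 (difference −1.36 ± 0.16). The others were Klrd1 (−1.38 ± 0.28), Mrc1 (−1.25 ± 0.24), Klri2 (−1.21 ± 0.13), Septin3 (−1.20 ± 0.17), Lax1 (−1.17 ± 0.14), Cd300e (−1.13 ± 0.14), Clec4b1 (−1.12 ± 0.19) and Efhd1 (−1.11 ± 0.21). Lax1, an adaptor that limits lymphocyte signalling, differed by 0.67 in CDP and 1.83 in MPP. In MPP, Klri2, Clec4b1 and Efhd1 lay at 6.21 or less on all 6 arrays of 4 h and 0 h, near the dim end of the scale. Mrc1 averaged 6.78 in untreated MPP, near its treated values in CDP. Without the replicate block 10 were higher and 7 lower, and without replicate 1, 9 and 5. Of the 20 differences named, Gm11545, Il1f9, Klrd1, Gda, Cd300e, Clec4b1 and Efhd1 lost their call without the block (limma adjusted p = 0.018 to 0.532), and 13 lost it with an array or replicate left out. Siglech, Cldn1, Hepacam2, Kctd14 and Apbb2 kept theirs under all of these.

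**Figure D4:**
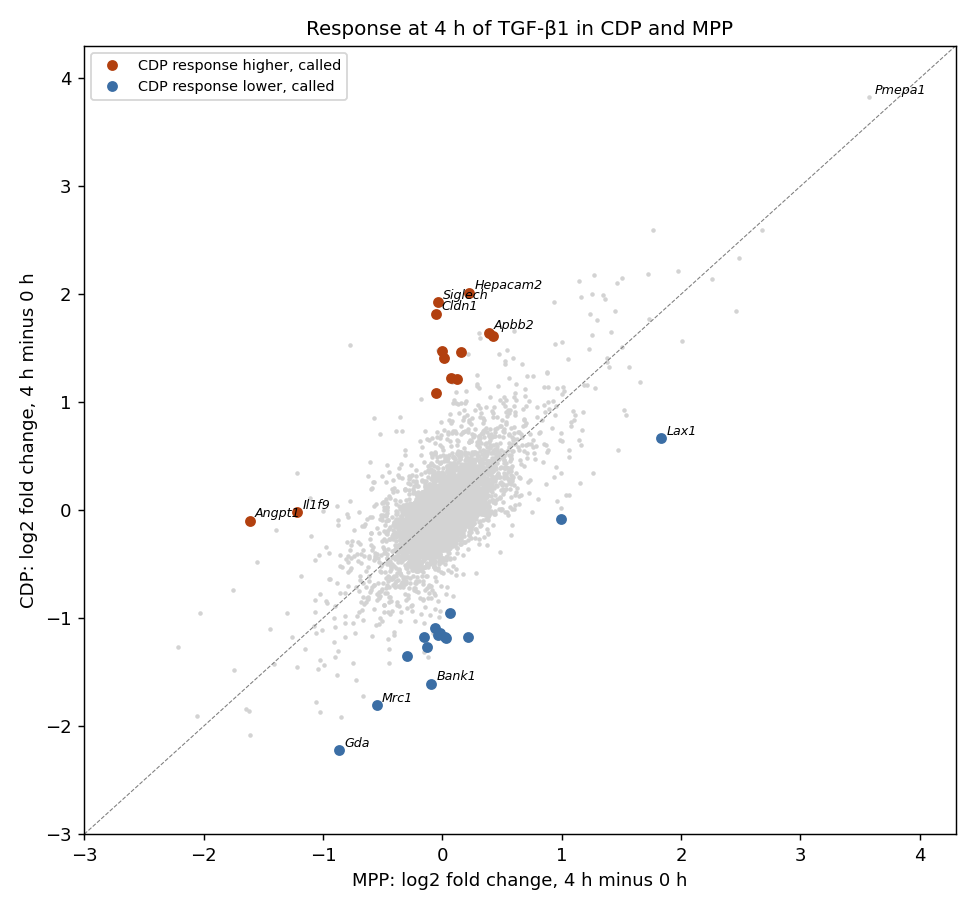
Log2 fold change at 4 h against 0 h in CDP (vertical axis) and MPP (horizontal axis) for all 19938 genes, with genes whose responses differed by the test in colour and the line of equal response dashed. Siglech, Cldn1 and Hepacam2 lie near 0 in MPP and near 2 in CDP, and Pmepa1 lies close to the line.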

How the data were processed

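RNA of MPP and CDP was measured on 36 Affymetrix Mouse Gene 1.0 ST arrays. The deposited values are log2 intensities, made by the submitters with Affymetrix Power Tools and RMA per their processing notes (no version is given). The study itself used another summary. RMA sets all arrays to 1 distribution, so a change is relative to the other genes, and large changes of dim genes are compressed. No genome build is given in the sources used here. Of 35556 probe sets 21789 carry 1 gene symbol (1621 several, 12146 none), and the brightest per gene over all arrays was kept (19938 genes).

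Groups were compared by linear models (limma 3.58.1, R 4.3.3). The model of 4 h against 0 h and 2 h took all 18 CDP arrays and the replicate number as a block. That of CDP minus MPP took all 36 arrays and 1 block for each replicate number of a cell type. Adjusted p-values are Benjamini-Hochberg over all genes, two-sided. Called genes had an adjusted p under 0.01 and moved by at least 1 on the log2 scale. The block was kept because residuals of same-numbered arrays at 4 h and 0 h correlated at 0.21, 0.56 and 0.56, and all 15 CDP arrays at later times correlated with their 0 h array at 0.21 or more. The study's methods also use it. Between 2 h and 4 h replicate 1 correlated at −0.13, so there the numbers were not shown to pair the arrays. In MPP, which the model of CDP minus MPP also blocks, same-numbered arrays at 4 h and 0 h correlated at 0.57, 0.32 and 0.29. Scripts were tested on simulated data. Named genes were the 15 largest called rises and falls, called members of 48 gene lists (1029 entries), any TGF-β receptor, Smad, ligand or feedback gene, the 8 largest calls each way for 4 h against 2 h and the 10 largest for CDP minus MPP. Golm1, Emp1, Sgk1, genes given as examples of courses or array order and list members under the fold minimum were chosen after their values were seen. The genes, lists and comparisons were chosen with earlier results of these data known. Alternatives changed the block, filter, probe sets, variance prior, scaling and arrays. With 3 arrays per group, array number sets the precision.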

Additional observations from a re-analysis of the deposited data

Results flagged for a closer look

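A difference between CDP and MPP in the response at 4 h was tested directly for every gene, and the 10 largest called differences in each direction are given here. Of these 20, 7 lost their call under an alternative that left no array out and 13 with an array or replicate left out. The higher ones in CDP were Siglech (1.96), Cldn1 (1.87), Hepacam2 (1.79), Angpt1 (1.52), Gm11545 (1.48), Kctd14 (1.40), Ifnlr1 (1.31), Apbb2 (1.25), Il1f9 (1.20) and Agap1 (1.19). The lower ones were Bank1 (−1.51), Klrd1 (−1.38), Gda (−1.36), Mrc1 (−1.25), Klri2 (−1.21), Septin3 (−1.20), Lax1 (−1.17), Cd300e (−1.13), Clec4b1 (−1.12) and Efhd1 (−1.11).

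Probe sets without a single gene symbol took no part in the comparisons. Of 13767 such probe sets, 69 were higher and 5 lower in CDP at 4 h by the same test, and 64 of the higher ones came from 1 run of 6617 identifiers that precedes the first probe set with a gene in the annotation. The median of these 64 was 9.29, 9.65 and 9.43 at 4 h, against 7.65, 7.78 and 7.64 at 0 h in CDP, while the median of the whole run was 7.43, 7.60 and 7.41 at 4 h, against 7.46, 7.48 and 7.40 at 0 h. In MPP the median of the same probe sets was 8.85, 8.62 and 7.85 at 4 h, against 7.75, 7.68 and 7.45 at 0 h. The median of the whole run in MPP was 7.45, 7.45 and 7.08 at 4 h, against 7.52, 7.51 and 7.38 at 0 h. Replicate 3 at 4 h was thus low over the whole run. The 64 probe sets were chosen by the CDP contrast, so the CDP values are a description.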

How the results depend on the processing

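For 4 h against 0 h, 86 higher and 54 lower genes became 465 and 500 without the fold minimum, and leaving out replicates or single arrays gave 64 to 90 higher and 35 to 60 lower genes, the fewest without replicate 1. For 4 h against 2 h, 5 higher and 6 lower genes became 3 and 2 without the replicate block and 3 and 3 with a random block, with 3 higher after centring on the median, and leaving out arrays gave 0 to 5 higher and 0 to 6 lower. For the difference from MPP, 13 higher and 15 lower became 10 and 7 without the replicate block, and 9 to 17 and 5 to 19 with arrays left out. No named gene changed sign. Of the 70 genes named for 4 h against 0 h, 53 kept their call under all alternatives that left no array out and 43 with arrays left out. For 4 h against 2 h these were 4 and 0 of 11 genes, and for the difference from MPP 13 and 7 of 20. For the innate surface receptors, 8 lower members became 3 without the replicate block. Signal near background, as of Klri2 at 5.58 to 5.86 in CDP at 4 h, bounds how far a fall can be measured.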
